A study of Mus musculus with 12 samples.

Results

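The mouse genome carries a large family of genes related to human PRAME, and 12 of the 30480 genes listed in the deposited tables have a symbol that starts with Pramel or Pramef. They were taken by that symbol rule and by nothing measured: Pramel1, Pramel3, Pramel4, Pramel5, Pramel6, Pramel7, Pramef6, Pramef8, Pramef12, Pramef12os, Pramef17 and Pramef25. The transient table lists 11 of them, since it has no row for Pramel4, and the tables of the stable line list all 12. A further 37 genes of the same family stand in the tables under other symbols, such as Oog1 or Gm13078, and serve here as a companion list.

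PRAME family genes encode leucine-rich repeat proteins, sit in tandem clusters in rodent genomes, and are known for expression in germ cells, oocytes and early embryos. In mouse embryonic stem cells, PRAMEL7 is known to join a cullin-2 ubiquitin ligase that targets UHRF1, a factor that maintains DNA methylation, and PRAMEL6 is its close neighbour and relative. Human PRAME is known to bind cullin-2 as well and to repress retinoic acid receptor signalling.

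RNA was measured in mouse embryonic stem cells, which are pluripotent and derive from the blastocyst; they were grown on gelatin in serum, LIF (leukemia inhibitory factor) and 2i, the kinase inhibitors CHIR99021 and PD0325901. The study asked which genes change when mDUX, a double-homeobox transcription factor of the early embryo, is overexpressed from a codon-altered transgene. In the transient set, cells expressed untagged mDUX or a control for 24 h (2 libraries each, 50 bp single-end reads). In the stable set, single-cell clones carried a doxycycline-inducible 3xHA-mDUX lentivirus (pCW57.1) and the reporter MERVL::EGFP, in which the retroviral element MERVL drives a gene for green fluorescent protein, under constant puromycin and G418 selection. These cells were sequenced unsorted, without doxycycline or after 24 h of it, and, after 24 h of doxycycline, as sorted GFP-negative and GFP-positive cells (2 libraries each, 125 bp paired-end reads). The libraries of a group are called A and B. The sample labels give the transient control the same transgene as the mDUX samples while its titles call it control, and the groups follow the titles. No group had doxycycline without the inducible transgene, so mDUX and the drug cannot be told apart in the stable line.

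The 12 genes lie at 3 places of the mm10 genome (GRCm38, GENCODE M21 annotation). Pramel7 (chr2:87489087-87497093, minus strand) and Pramel6 (chr2:87506565-87510872, plus strand) are neighbours within 21.8 kb. A cluster on chromosome 4 holds 9 of them over 1014 kb, in the order Pramel1, Pramef8, Pramef6, Pramef25, Pramef17, Pramel4, Pramel5, Pramef12 and Pramef12os. Pramel3 lies on the X chromosome (chrX:135302307-135312652, plus strand). All are annotated as protein coding except Pramef12os, an antisense transcript (chr4:144404868-144406301, plus strand) inside Pramef12 (chr4:144391674-144408464, minus strand). RefSeq now files Pramef6 as Pramel11, Pramef8 as Pramel12, Pramef12 as Pramel13, Pramef17 as Pramel14 and Pramef25 as Pramel16.

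The family's copies are alike enough to limit what a read count can say. In the annotated transcripts, 6 of the 12 genes share more than 10% of their 50-base stretches with another gene. The share was 87.4% for Pramel4 (mostly with Gm13102), 81.8% for Pramel3 (Gm15023), 73.5% for Pramef17 (Gm13128), 63.5% for Pramef25 (Gm13040 foremost), 33.7% for Pramef6 (Gm13083) and 25.9% for Pramel5 (Pramel4). It was 0% for Pramel1, Pramel6, Pramef8, Pramef12 and Pramef12os and 1.43% for Pramel7. Neither the handling of reads that map to several places nor the strand setting of the counting is stated in the sources used here. Counts of the first 6 genes are therefore uncertain as to the copy they came from, and reads of Pramef12 and Pramef12os, on opposite strands, cannot be told apart without the strand setting.

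RefSeq promoters (GRCm38.p6, 250 bases before to 50 after the start) were found for 10 of the 12 genes, all but Pramef8 and Pramef12os, and for 28 of the 37 relatives. The promoters of Pramef6 and of its relative Gm13078 are shown because the pair rose together in all 3 comparisons, with capitals where the copies differ or do not align. They match at 261 of 300 aligned positions (87%), and lie at chr4:143900331-143900630 (minus strand) and chr4:143719201-143719500 (plus strand).
Pramef6: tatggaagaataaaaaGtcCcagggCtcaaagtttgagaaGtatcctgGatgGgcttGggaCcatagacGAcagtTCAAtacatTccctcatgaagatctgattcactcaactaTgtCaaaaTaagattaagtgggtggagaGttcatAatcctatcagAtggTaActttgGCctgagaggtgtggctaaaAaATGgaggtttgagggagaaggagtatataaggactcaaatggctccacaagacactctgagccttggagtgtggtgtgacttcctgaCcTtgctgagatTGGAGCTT
Gm13078: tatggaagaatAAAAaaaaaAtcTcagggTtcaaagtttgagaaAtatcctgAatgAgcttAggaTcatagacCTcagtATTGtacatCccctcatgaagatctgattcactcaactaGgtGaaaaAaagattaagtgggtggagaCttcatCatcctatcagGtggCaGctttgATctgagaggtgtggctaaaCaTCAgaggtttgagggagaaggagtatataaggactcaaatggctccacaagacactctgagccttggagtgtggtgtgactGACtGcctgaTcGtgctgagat

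The promoters of Pramef17 and its relative Gm13128 are shown because this pair had the smallest changes with doxycycline among the tested genes of the chromosome 4 cluster, with capitals again at the differences. They match at 293 of 300 aligned positions (97.7%), and lie at chr4:143994320-143994619 (minus strand) and chr4:144329999-144330298 (plus strand).
Pramef17: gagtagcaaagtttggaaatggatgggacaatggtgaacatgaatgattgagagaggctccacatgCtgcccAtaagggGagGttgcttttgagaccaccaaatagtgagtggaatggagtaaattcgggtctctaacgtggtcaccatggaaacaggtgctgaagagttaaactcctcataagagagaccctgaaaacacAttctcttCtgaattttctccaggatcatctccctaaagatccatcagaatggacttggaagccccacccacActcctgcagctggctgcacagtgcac
Gm13128: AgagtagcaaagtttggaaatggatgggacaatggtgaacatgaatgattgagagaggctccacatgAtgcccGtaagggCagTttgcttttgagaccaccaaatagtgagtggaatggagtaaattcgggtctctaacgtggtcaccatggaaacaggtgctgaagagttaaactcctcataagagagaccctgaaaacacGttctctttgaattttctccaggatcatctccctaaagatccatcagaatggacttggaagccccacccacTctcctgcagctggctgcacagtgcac

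Pramef25 is shown because it supplied most of the Pramel and Pramef reads after doxycycline. Its promoter lies at chr4:143950967-143951266 (minus strand), and capitals mark the 50 bases from the RefSeq start on.
Pramef25: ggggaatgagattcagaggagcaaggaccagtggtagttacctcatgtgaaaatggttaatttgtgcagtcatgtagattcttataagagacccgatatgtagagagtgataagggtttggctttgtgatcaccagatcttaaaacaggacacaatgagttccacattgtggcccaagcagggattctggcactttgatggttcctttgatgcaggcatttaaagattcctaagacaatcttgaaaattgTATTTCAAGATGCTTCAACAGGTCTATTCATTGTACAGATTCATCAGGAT

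The letters GATTNAATC, the core of a motif described for mouse DUX, were searched on both strands. They stood in 88 of 32851 RefSeq promoters (0.268%), in 0 of the 10 Pramel and Pramef promoters, and in 3 of the 28 relatives' promoters. Those relatives were B020004J07Rik, BC080695 and Gm13119. The bases around the match are nearly the same in BC080695 and Gm13119, so the matches of this pair are not independent. A longer form of the motif, with 1 further base at each end, stood in 11 of all promoters and in 0 of both sets. BC080695 (chr4:143567217-143567516, plus strand) is shown as an example, with the match in capitals, because its change was the largest of the chromosome 4 cluster with doxycycline.
BC080695: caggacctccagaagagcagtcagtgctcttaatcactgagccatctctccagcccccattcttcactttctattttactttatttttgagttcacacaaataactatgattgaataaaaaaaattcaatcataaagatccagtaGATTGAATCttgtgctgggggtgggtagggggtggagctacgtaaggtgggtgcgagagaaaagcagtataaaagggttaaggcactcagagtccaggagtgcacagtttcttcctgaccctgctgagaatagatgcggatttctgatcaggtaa

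Each transient library had 16101509 to 20506060 reads on genes, each unsorted one 9555044 to 15468715 and each sorted one 26446154 to 51358607. The biological coefficient of variation of these sets was 11.9%, 3.78% and 5.04%, so the transient comparison had the least precise differences. Levels are given as CPM, the counts per 1000000 gene reads after TMM scaling (a correction for library composition), on a scale of its own in each set. All 7 stem cell markers looked at, Pou5f1 and Nanog among them, were present in every group. Their sums were 4111 to 4265 CPM in the transient control and 4113 to 4226 CPM with mDUX, 6083 to 6093 CPM without doxycycline and 3544 to 3704 CPM with it, and 4027 to 4067 CPM in GFP-negative and 2587 to 2595 CPM in GFP-positive cells. A list of 5 genes of 2-cell-like cells, a state that resembles the early embryo, summed to 63.9 to 68.7 CPM in the transient control and 695 to 732 CPM with mDUX. In the stable line its sums were 6.13 to 7.89 CPM without doxycycline, 9019 to 9319 CPM with it, 120 to 128 CPM in GFP-negative and 10833 to 11206 CPM in GFP-positive cells. Of 6 fibroblast markers, 5 were listed in the transient table and all 6 in the others. They summed to 21.0 to 21.2 CPM with doxycycline, where a single gene had a mean of 19.8 CPM and Dcn was at 0. In GFP-positive cells they summed to 18.1 to 19.7 CPM, with the highest gene at a mean of 11.0 CPM and Lum, Dcn and Col3a1 at 0. In the other 4 groups the sums were 2.15 to 3.34 CPM, with Dcn and Col3a1 at 0 in GFP-negative cells. Sums of 4 endoderm markers were 2.15 to 2.45 CPM without and 9.52 to 9.73 CPM with doxycycline, 0.907 to 0.924 CPM in GFP-negative and 3.93 to 4.43 CPM in GFP-positive cells, and 2.02 to 2.46 CPM in the transient libraries. Sums of 4 trophectoderm markers lay between 4.84 and 19.9 CPM, with Elf5 at 0 in GFP-positive cells. The part of these markers in the family's changes was not tested. In bulk RNA, more cells of a type and more RNA per cell cannot be told apart.

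In both transient groups, uninduced cells and GFP-negative cells, a pair of genes carried most of the Pramel and Pramef reads. Pramef12 and Pramef8, both of the chromosome 4 cluster, together made up 90% of these reads in the transient control and 82.3% with transient mDUX. Their share was 75% without doxycycline and 70.6% in GFP-negative cells. In uninduced stable cells Pramef12 stood at 50.6 and 54.1 CPM, and Pramef8 at 46.8 and 40.2 CPM. Pramef17 followed with 14.9 and 15.9 CPM, and Pramel7 with 6.20 and 4.48 CPM. Per kilobase of gene length the first of these were also the highest, with 20.3 CPM per kb for Pramef12, 10.4 for Pramef8 and 8.80 for Pramef17. The order was Pramef12, Pramef8 and then Pramel7 in the transient control, where Pramef17 was low at 1.61 and 1.49 CPM. Pramel4 had 0 reads in all 4 libraries without doxycycline or without GFP.

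After doxycycline the make-up was another one. Out of every 1000000 gene reads, 140 and 136 fell on Pramel and Pramef genes without the drug and 1300 and 1282 with it. Pramef25 alone supplied 67.3% of those with the drug, against 1.17% without it. In GFP-positive cells the Pramel and Pramef genes took 872 and 852 of every 1000000 gene reads, against 144 and 144 in GFP-negative cells. Pramef25 supplied 45.9% of their reads in GFP-positive cells. Pramel6 gave 14.6% of these reads in GFP-positive cells but 2.06% in unsorted doxycycline cells. In the transient set the same count was 171 and 179 in the control and 217 and 232 with mDUX. Pramef25 went there from 0.857% to 6.05% of the Pramel and Pramef reads. Relatives under other symbols were not counted in any of these values.

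**Figure D1:**
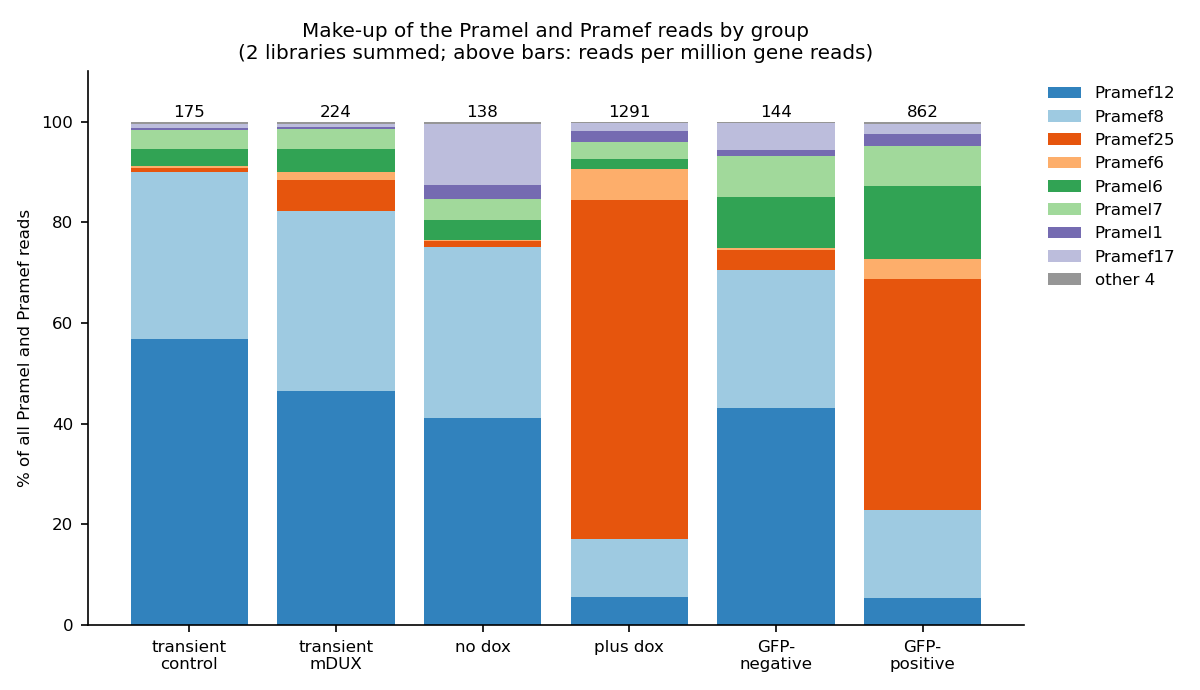
Share of each gene in all reads counted on Pramel and Pramef genes (y axis, %), by group (x axis). The 2 libraries of a group were summed. The number above a bar is the group's mean of Pramel and Pramef reads per 1000000 gene reads. Pramef12 and Pramef8 fill 70.6% to 90% of the bars of both transient groups and of the no doxycycline and GFP-negative groups. Pramef25 is the largest part with doxycycline (67.3%) and in GFP-positive cells (45.9%).

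**Figure D2:**
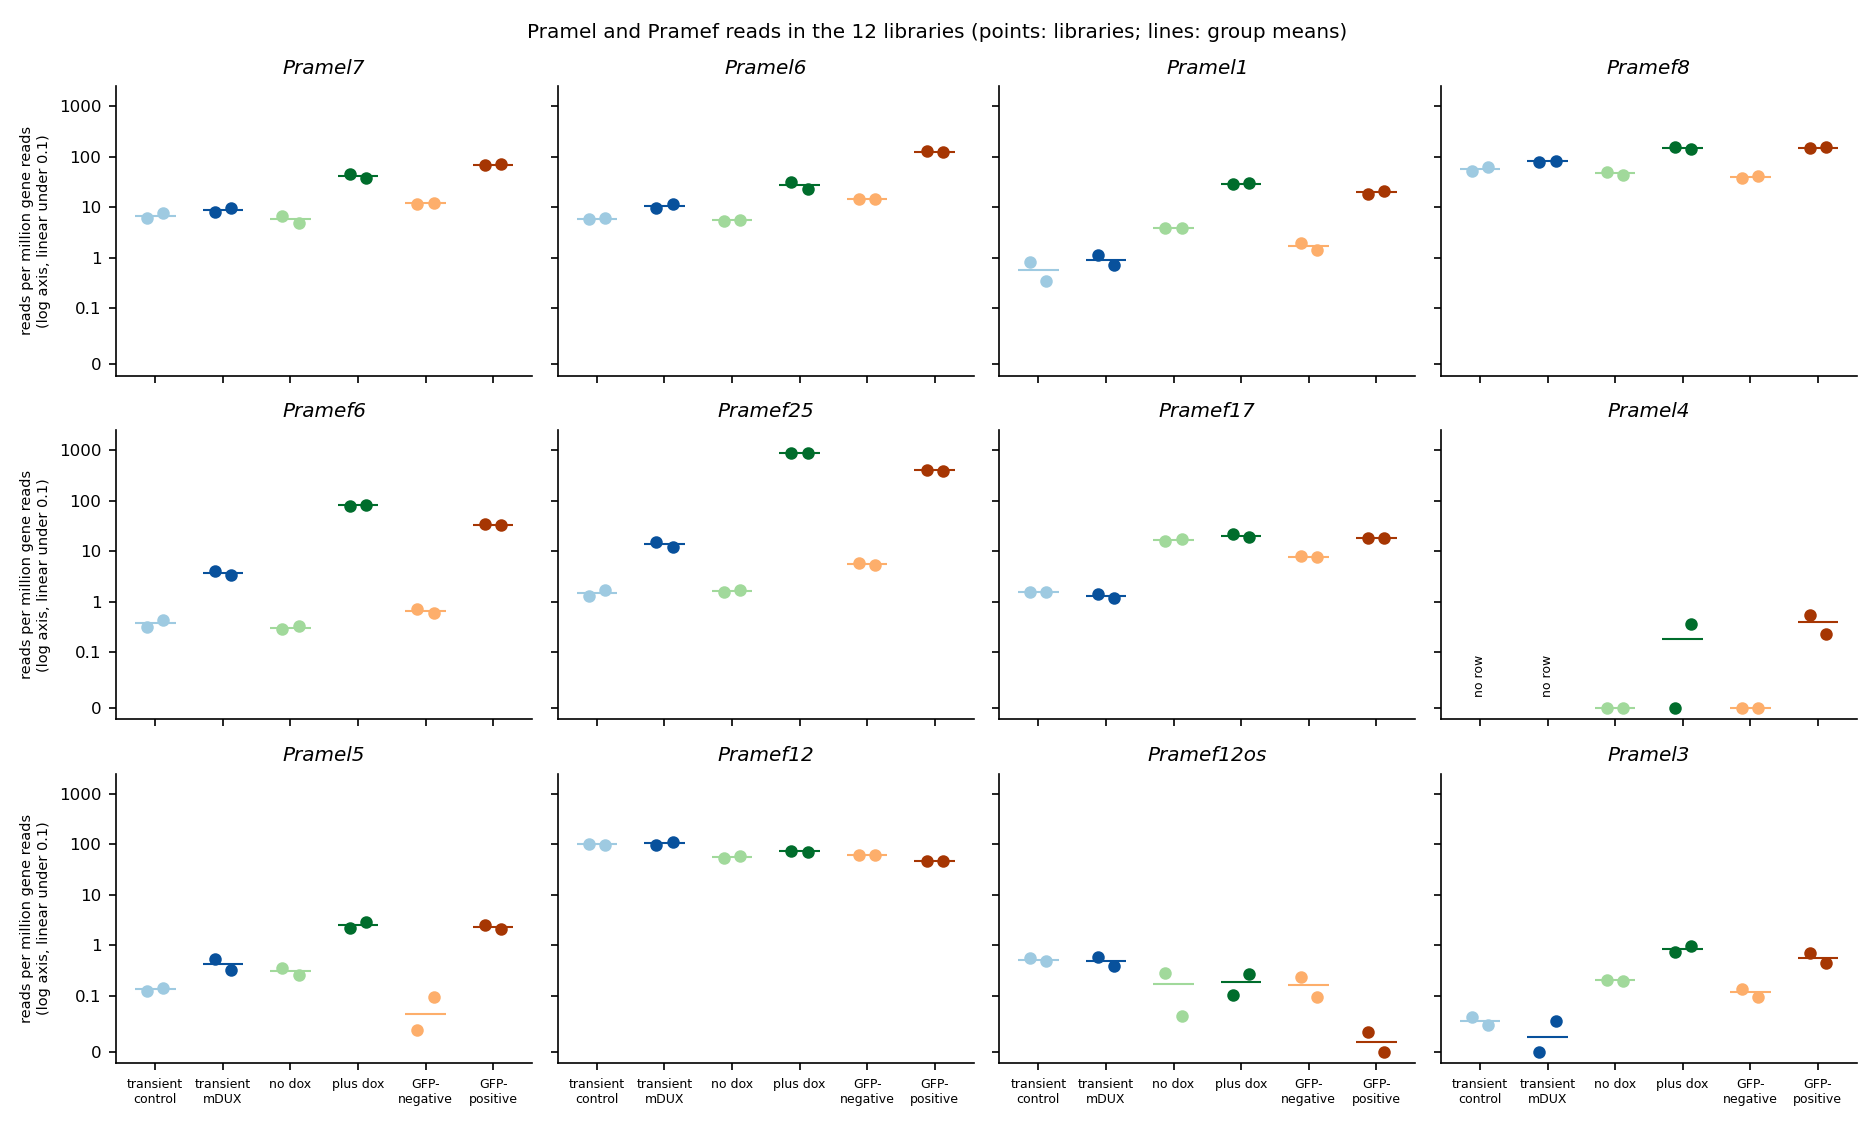
Reads per 1000000 gene reads of each gene (y axis, log scale above 0.1 and linear below) in the 6 groups (x axis), with 1 point per library and a line at the mean of the 2 libraries; "no row" marks Pramel4 in the transient table. Pramef25 goes from 1.30 to 873 reads on this scale, while Pramef12 lies between 46.8 and 112 in every library.

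Transient mDUX raised Pramef6 and Pramef25, which lie next to each other in the cluster, and no other Pramel or Pramef gene passed the test. Pramef25 stood at 1.35 and 1.64 CPM in the control and at 14.7 and 12.1 CPM with mDUX. Both mDUX libraries lay far above both controls, a log2 difference of 3.15 ± 0.21 (SE, n = 2 libraries per group; 8.87-fold; quasi-likelihood test in edgeR, Benjamini-Hochberg adjustment over all genes, adjusted p = 0.000143). Pramef6 stood at 0.321 and 0.433 CPM in the control and at 3.98 and 3.29 CPM with mDUX, from 5 and 9 reads against 76 and 60. Its difference was 3.22 ± 0.32 on the log2 scale (9.32-fold; edgeR adjusted p = 0.0011).

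Of the 11 listed genes, 9 had enough reads to be tested, 2 rose, 0 fell and 7 did not pass. Of those that rose, Pramef6 passed the read filter through its mDUX libraries alone. Over all genes 2.13% were called higher and 0.00668% lower in this comparison. Pramel6 stood at 5.91 and 6.06 CPM in the control and at 9.48 and 11.2 CPM with mDUX. The groups did not overlap, but the difference of 0.79 ± 0.17 missed the threshold (edgeR adjusted p = 0.0798), as it did for Pramef8 at 54.4 and 61.6 against 78.5 and 80.5 CPM (0.45 ± 0.11, edgeR adjusted p = 0.131). Both passed without the control library A (adjusted p = 0.00142 and 0.00248) or without the control library B (0.000916 and 7.38e-07), and without any read filter (0.00482 and 0.0115). The test over all genes reacted to library B as well, with 1185 genes higher and 1404 lower without it, against 319 and 1 with all 4 libraries.

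Pramel7 stood at 6.30 and 7.41 CPM in the control and at 8.07 and 9.58 CPM with mDUX, which do not overlap (log2 difference 0.36 ± 0.18, edgeR adjusted p = 0.873). Pramef12 stood at 106 and 96.7 CPM in the control and at 95.6 and 111 CPM with mDUX, ranges that overlap. Pramef17, at 1.61 and 1.49 against 1.41 and 1.15 CPM, had a log2 difference of -0.26 ± 0.29. Pramel1 had 13 and 7 reads in the control and 21 and 13 with mDUX, and Pramef12os 9 and 10 against 11 and 7, with log2 differences of 0.70 ± 0.50 and -0.12 ± 0.46. Pramel5, with 2 and 3 reads against 10 and 6, and Pramel3, with at most 1 read in any library, had too few to be tested.

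Doxycycline raised every Pramel and Pramef gene that could be tested, from 622-fold for Pramef25 down to 1.41-fold for Pramef17. Of the 12 genes, 9 were tested and all 9 rose, 7 of them at least 2-fold; 34% of all genes tested were called higher, 31.1% lower, and 16.2% higher by at least 2-fold. A gene that passed the read filter through its doxycycline libraries alone had to differ, as was so for Pramef6 and Pramel5. The count also says little about the genes left out. The median log2 difference of the 9 was 3.09, against 0.005 over all genes.

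Pramef25 went from 1.44 and 1.55 CPM without doxycycline to 933 and 942 CPM with it. No other gene of the set reached such a level: per kilobase it stood at 557 CPM, against 41.4 for the second, Pramef6. The log2 difference was 9.28 ± 0.11 (edgeR adjusted p = 3.7e-187). Pramef6 went from 0.261 and 0.299 CPM, or 4 and 5 reads, to 84.7 and 88.0 CPM, or 749 and 906 reads (298-fold, log2 difference 8.22 ± 0.17, edgeR adjusted p = 2.31e-125). The same 2 neighbours thus headed the list here and in the transient set, at very different sizes.

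The pair on chromosome 2 rose as well. Pramel7, the partner of the cullin-2 ligase, went from 6.20 and 4.48 CPM to 50.0 and 40.9 CPM, with no overlap (8.51-fold, log2 difference 3.09 ± 0.12, edgeR adjusted p = 6.18e-63). Pramel6 went from 4.96 and 5.20 CPM to 33.4 and 24.7 CPM (5.66-fold, 2.50 ± 0.14, edgeR adjusted p = 9.14e-45). Relative to the mean, the 2 libraries with doxycycline spread more for Pramel7 and Pramel6 than for Pramef25 or Pramef6. Library A was above library B for both Pramel7 and Pramel6.

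At the other end of the chromosome 4 cluster, Pramel1 went from 3.65 and 3.59 CPM to 30.9 and 32.5 CPM (8.74-fold, log2 difference 3.13 ± 0.14, edgeR adjusted p = 1.54e-60). Pramef8, already among the most abundant before the drug, went from 46.8 and 40.2 CPM to 165 and 154 CPM (3.67-fold, 1.87 ± 0.07, edgeR adjusted p = 3.66e-76). The smallest rises were those of the other genes with high starting levels. Pramef12 went from 50.6 and 54.1 CPM to 81.4 and 76.5 CPM (1.51-fold, 0.59 ± 0.07, edgeR adjusted p = 3.51e-14). Pramef17 went from 14.9 and 15.9 CPM to 23.1 and 20.6 CPM (0.50 ± 0.11, edgeR adjusted p = 4.23e-05).

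These last values depend on the scaling, since doxycycline changed many genes at once. With scaling to gene totals alone the median of all genes moved to -0.22, Pramef12 and Pramef17 stood at 0.37 and 0.27 on the log2 scale and still passed, and 4097 genes were higher and 7458 lower against 5525 and 5051 with TMM. Pramel5 rose from 5 and 4 reads to 21 and 33 (9.73-fold, log2 difference 3.28 ± 0.44, edgeR adjusted p = 8.55e-12). Among the 3 genes with too few reads to test, Pramel3 had 3 and 3 reads without and 7 and 11 with doxycycline. Pramel4 had 0 and 0 against 0 and 4, and Pramef12os 4 and 1 against 1 and 3.

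**Figure D3:**
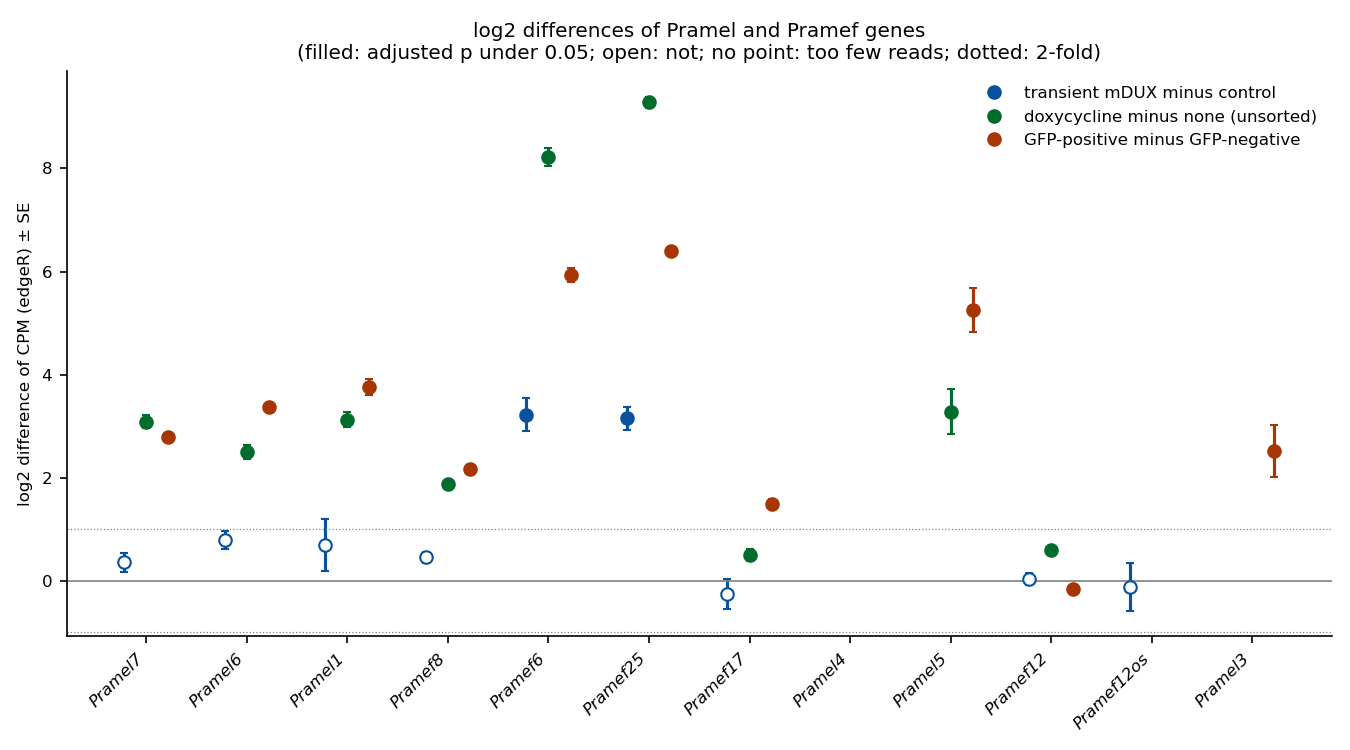
Log2 difference of CPM with its standard error (y axis) for each gene (x axis, in chromosome order) in the transient, doxycycline and sorted comparisons, with 2 libraries per group; filled points have an adjusted p under 0.05 (edgeR), open points do not, and a gene without a point had too few reads. The doxycycline and sorted points of Pramef25 and Pramef6 stand at 9.28 and 8.22 and at 6.40 and 5.93, and Pramef12 has the only filled point below 0, at -0.15.

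Among doxycycline-treated cells, those with the MERVL reporter on carried more RNA of nearly all the genes. Of the 12, 10 were tested, 9 were higher in GFP-positive cells, each by at least 2-fold, and 1, Pramef12, was lower. Pramel3 and Pramel5, with 7 and 5 and with 2 and 5 reads in GFP-negative cells, passed the read filter through GFP-positive libraries alone. For them a difference was largely fixed by the filter. In this comparison 34.3% of all genes were called higher, 32% lower, and 17% higher by at least 2-fold; the median log2 difference was 3.08 for the 10 and 0.001 for all genes. The gate was set on a reporter of MERVL, an element that mDUX is known to activate.

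Pramef25 again came first. It stood at 5.31 and 4.89 CPM in GFP-negative and at 446 and 417 CPM in GFP-positive cells (84.5-fold, log2 difference 6.40 ± 0.07, edgeR adjusted p = 2.86e-16), and Pramef6 at 0.640 and 0.543 against 37.2 and 35.5 CPM (61.1-fold, 5.93 ± 0.13, edgeR adjusted p = 1.83e-13). Pramel5, although low, followed by fold, with 2 and 5 reads against 69 and 55 (38.2-fold, 5.26 ± 0.42, edgeR adjusted p = 1.47e-07). Pramel1 stood at 1.81 and 1.32 against 20.2 and 22.5 CPM (13.6-fold, 3.76 ± 0.15, edgeR adjusted p = 1.05e-10).

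Pramel6 was the second highest gene per kilobase in GFP-positive cells, at 65.8 CPM per kb after 256 for Pramef25. It stood at 13.4 and 13.2 CPM in GFP-negative and at 140 and 135 CPM in GFP-positive cells, with no overlap (10.3-fold, log2 difference 3.36 ± 0.07, edgeR adjusted p = 3.78e-14). Pramel7, its neighbour, stood at 10.6 and 11.1 against 73.1 and 76.9 CPM (6.92-fold, 2.79 ± 0.08, edgeR adjusted p = 1.35e-12). In unsorted cells, Pramel7 had been the higher of this pair, at 21.3 against 13.9 CPM per kb with doxycycline, and in GFP-positive cells it was the lower, at 35.1 CPM per kb.

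Pramef8 stood at 35.0 and 37.7 CPM in GFP-negative and at 164 and 165 CPM in GFP-positive cells (4.51-fold, log2 difference 2.17 ± 0.06, edgeR adjusted p = 1.82e-12). Pramef17 stood at 7.34 and 6.86 against 19.98 and 19.83 CPM (2.8-fold, 1.49 ± 0.10, edgeR adjusted p = 2.94e-08). Pramef12 alone stood lower in GFP-positive cells, at 51.2 and 51.2 CPM against 56.8 and 56.9 CPM. The libraries did not overlap, but the difference of -0.15 ± 0.06 was small and passed only narrowly (edgeR adjusted p = 0.0468); under DESeq2, under DESeq2 size factors in edgeR, with a stricter read filter or without either GFP-negative library or GFP-positive library A, its adjusted p was 0.0546 to 0.191.

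Pramel3, the gene on the X chromosome, had 7 and 5 reads in GFP-negative and 19 and 12 in GFP-positive cells (log2 difference 2.51 ± 0.51, edgeR adjusted p = 0.000673). Pramel4 had 0 and 0 against 15 and 6 reads, at least 15.8-fold higher against a floor of 3 counts over the GFP-negative group, and was too low for the test. Pramef12os had 12 and 5 reads in GFP-negative and 1 and 0 in GFP-positive cells, the reverse of most of the set, and was not tested.

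In GFP-negative cells, although they did not report MERVL, most of the tested members stood at other levels than in cells that had never seen doxycycline. So did a similar share of all genes, and nothing particular to the family is read from the counts. A joint fit was made of all 8 libraries of the stable line. There 10 genes were tested, 6 were higher in GFP-negative cells, 2 lower and 2 did not pass, where 43.6% of all genes were called higher and 34.2% lower and the median of all genes was 0.14 on the log2 scale. The groups also differ in sorting and in depth, which cannot be told apart from the drug and the gate. On the joint scale Pramef25 stood at 6.66 and 6.13 CPM in GFP-negative and at 1.18 and 1.28 CPM in uninduced cells (log2 difference 2.37 ± 0.16, edgeR adjusted p = 6.63e-14). Pramel6 (16.8 and 16.6 against 4.08 and 4.29 CPM, 1.99 ± 0.13, edgeR adjusted p = 1.16e-14) and Pramel7 (13.3 and 13.9 against 5.11 and 3.70 CPM, 1.63 ± 0.13, edgeR adjusted p = 3.02e-12) were higher as well.

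Pramef6 was higher too, from 0.215 and 0.247 to 0.802 and 0.681 CPM (log2 difference 1.66 ± 0.41, edgeR adjusted p = 0.000609), and so was Pramef12, from 41.7 and 44.6 to 71.2 and 71.4 CPM (0.72 ± 0.06, edgeR adjusted p = 2.68e-11). Pramef17 went the other way, from 12.3 and 13.1 CPM in uninduced to 9.21 and 8.61 CPM in GFP-negative cells (-0.51 ± 0.11, edgeR adjusted p = 8.65e-05), and Pramel1 from 3.01 and 2.96 to 2.27 and 1.66 CPM (-0.60 ± 0.19, edgeR adjusted p = 0.00623). Pramel1 lost its call without uninduced library A (adjusted p = 0.0513) or GFP-negative library B (0.0905).

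Scaling changed calls in this comparison. With gene totals alone the median of all genes moved to -0.43 and the split of the tested members was 4 higher and 4 lower: Pramef8, at 0.35 with TMM (edgeR adjusted p = 6.46e-05), was -0.24 (adjusted p = 0.00259), Pramef12 no longer passed (0.13, adjusted p = 0.0637), and Pramel5, at -1.50 and not passing with TMM (edgeR adjusted p = 0.062), passed at -2.07 (adjusted p = 0.0117). Over all genes 5069 were then higher and 9117 lower, against 7768 and 6096 with TMM. Pramel3 did not pass with TMM (-0.19 ± 0.75, edgeR adjusted p = 0.831).

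The response of the family to transient and to doxycycline-driven mDUX differed in size. In a joint fit of the 8 transient and unsorted libraries, the transient difference was smaller than the doxycycline difference for 7 of 10 tested genes and larger for 0, where 14.1% of all genes were called lower and 22.9% higher and the median of all genes was 0.17. The gap was widest for Pramef25, at -5.95 ± 0.25 on the log2 scale (edgeR adjusted p = 1.22e-09), and Pramef6, at -4.83 ± 0.55 (edgeR adjusted p = 1.72e-05). Delivery, the tag, read length and the share of cells that expressed the transgene differ between the sets or are not known, and cannot be told apart.

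Along the chromosome 4 cluster, the tested genes from BC080695 to Pramef25 all had large changes with doxycycline. The smallest changes, of Pramef17, Gm13128 and Pramef12, lay further along, with Gm13119, a large one, between Gm13128 and Pramef12. The stretch from Pramel1 to Pramef12os holds 22 genes of the family, 9 with a Pramel or Pramef symbol and 13 under other symbols. With doxycycline 7 of the 9 and 6 of the 13 had enough reads to be tested and all were higher; between GFP-positive and GFP-negative cells 6 of 7 and 6 of 6 were higher, and with transient mDUX 2 of 7 and 4 of 5. The shares of all genes called higher were 34%, 34.3% and 2.13%, and here too the read filter favoured genes that were high in 1 group. Near Pramef6 and Pramef25, the relative Gm13078 had log2 differences of 2.98 ± 0.26 (transient), 9.49 ± 0.18 (doxycycline) and 6.06 ± 0.14 (GFP-positive), beside 3.22, 8.22 and 5.93 for Pramef6. Gm13128 had 0.07 ± 0.21, 0.46 ± 0.10 and 1.61 ± 0.08, beside -0.26, 0.50 and 1.49 for Pramef17. Without doxycycline Gm13078 had 0 and 5 reads and Pramef6 had 4 and 5, so the SEs of their doxycycline differences understate the error. The gap between these 2 differences was not tested. Pramef17 and Gm13128 share most of their transcript sequence, so their reads may not be separable.

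Similar promoter letters did not always go with similar changes. The Pramel7 and Pramef17 promoters match at 233 of 291 aligned positions (80.1%), while their log2 differences with doxycycline were 3.09 ± 0.12 and 0.50 ± 0.11. Pramel4 and Pramel5 match at 267 of 296 positions (90.2%), and both had 0 to 5 reads per library in uninduced and GFP-negative cells, with 6 to 69 in GFP-positive cells.

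**Figure D4:**
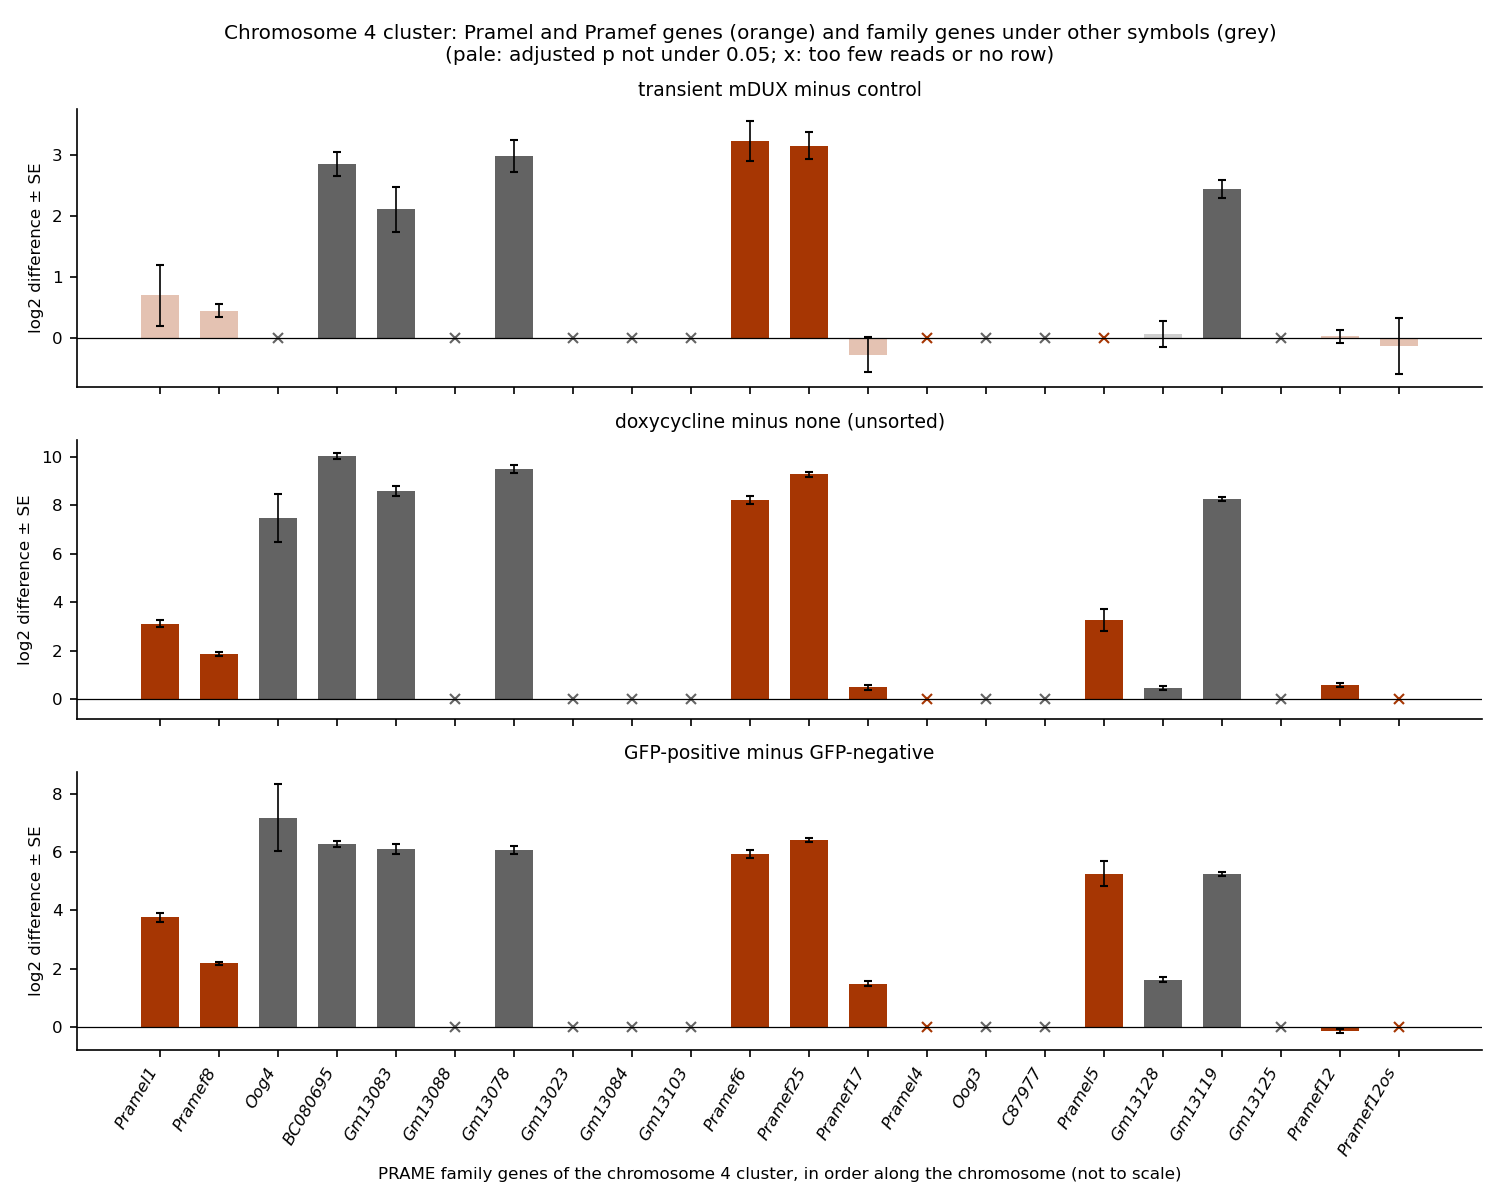
Log2 difference with its standard error (y axis) of the 22 PRAME family genes of the chromosome 4 cluster in chromosome order, not to scale (x axis), for the transient (top), doxycycline (middle) and sorted (bottom) comparisons; orange bars are Pramel and Pramef genes, grey bars relatives, pale bars have an adjusted p of 0.05 or more, and crosses had too few reads or no row. In all 3 panels the tall bars of BC080695, Gm13083, Gm13078, Pramef6 and Pramef25 stand together, with only crosses between them. The short bars of Pramef17, Gm13128 and Pramef12 come after them, with the tall bar of Gm13119 between Gm13128 and Pramef12.

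The relatives under other symbols were mostly higher as well, where 34% of all genes were called higher with doxycycline, 34.3% with GFP and 2.13% with transient mDUX. Many passed the read filter through the group where they were high alone, so a difference was largely fixed by the filter and the counts and medians support nothing about the relatives as a whole. With doxycycline 15 of 37 had enough reads and all 15 were higher (median log2 difference 8.57, or 7.76 with the genes at 0 reads in uninduced cells set to their bound), with GFP 19 of 37 were tested and all 19 were higher (6.03, or 6.02 with such genes at their bound), and with transient mDUX 7 of 9 tested, of 21 listed, were higher (2.85). Gm13119 went from 3.72 and 3.23 to 1069 and 1067 CPM with doxycycline, and Gm12794 from 2.09 and 1.97 to 892 and 935 CPM. Per kilobase these levels were 510 and 629 CPM, beside 557 for Pramef25. The 3 relatives with the motif letters in their promoter, B020004J07Rik, BC080695 and Gm13119, had log2 differences of 11.18 ± 0.16, 10.05 ± 0.13 and 8.26 ± 0.09 with doxycycline, and Pramef25, without those letters in its 300 bases, 9.28. Without doxycycline B020004J07Rik had 0 and 3 reads and BC080695 had 5 and 5, so their values rest on counts near the floor and their SEs understate the error. A link between the letters and the changes was not tested. The oocyte gene Oog1 had 0 reads without doxycycline and 62 and 90 with it, at least 84.2-fold higher against the floor. Lrrc14, a relative outside the clusters, rose with doxycycline by 0.48 ± 0.10 on the log2 scale (edgeR adjusted p = 4.97e-06).

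Genes of the pathways that PRAME proteins are known for are given here by count and value. Of 13 genes of the cullin-2 ligase and of DNA methylation, 0 passed with transient mDUX, 4 rose and 7 fell with doxycycline, and 5 were higher and 5 lower in GFP-positive cells (median log2 differences -0.04, -0.23 and -0.10). Over all genes, 34% were higher and 31.1% lower with doxycycline, and 34.3% and 32% in GFP-positive cells, and nothing particular to the list is read from these counts. Uhrf1, whose protein is the target of PRAMEL7, rose with doxycycline from a mean of 325 to 457 CPM (0.49, edgeR adjusted p = 1.06e-15), and Cul2, the scaffold of the ligase, fell by 0.46 (edgeR adjusted p = 7.26e-09). Uhrf2, a paralogue of Uhrf1, and Tceb1, the elongin C adaptor, rose by 1.40 and 1.09. Tet2 and Tet1, which oxidise methylated cytosine, and the maintenance methyltransferase gene Dnmt1 fell by 0.95, 0.52 and 0.45. Between GFP-positive and GFP-negative cells, Uhrf2, Tceb1, Tet2 and Tet1 differed by 1.45, 1.22, -1.46 and -0.94. Uhrf1 differed there by only 0.14 (edgeR adjusted p = 0.0221), and Cul2 (-0.11) and Dnmt1 (-0.10) did not pass.

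Of 13 genes of retinoic acid signalling, 10 were tested in the transient set and 11 in the others. Rxra, a partner receptor of the retinoic acid receptors, was the single gene of this list that rose with transient mDUX (0.89, edgeR adjusted p = 0.0143), and it rose with doxycycline from a mean of 22.8 to 842 CPM (5.21, edgeR adjusted p = 1.06e-165) and was higher in GFP-positive cells (4.02, edgeR adjusted p = 2.21e-15). In all, 5 genes of the list rose and 1 fell with doxycycline, and 4 were higher and 3 lower in GFP-positive cells, with medians of 0.10 and 0.18; the same shares of all genes apply, and nothing is read from these counts. Rara, a retinoic acid receptor, rose by 0.50 with doxycycline and was lower by log2 -0.74 in GFP-positive cells, while Rarg, another, was lower there (-0.43).

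The authors' deposited table calls much the same members. At an adjusted p under 0.05, the authors' deposited table has 2 of 9 genes higher with transient mDUX, 9 of 10 with doxycycline, and 10 of 12 higher and 1 lower in GFP-positive cells. The extra gene is Pramel4, with a log2 difference of 4.28 and an adjusted p of 0.000262 in the authors' deposited table, turned here to GFP-positive over GFP-negative. For transient mDUX the authors' deposited table has 1.53 for Pramef25 and 0.74 for Pramef6, smaller than the 3.15 and 3.22 fitted here from the counts.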

How the data were processed

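The members and lists were chosen with earlier results of these data known. Novoalign 2.8, DESeq2 and mm10 are named, with no role, per the submitters' processing notes; libraries were stranded poly(A) libraries, per the labels' protocols. The authors deposited raw read counts per Ensembl gene and repeat family, a gene length in bases (used for CPM per kb), and their own log2 fold changes and adjusted p-values, per the file headers; against the counts, the deposited log2 values of the stable line run in reverse and were turned. No source used here states the annotation release.

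The counts were fitted in edgeR 4.0.16 (R 4.3.3; robust glmQLFit, then glmQLFTest), each comparison on its own 4 libraries, after filterByExpr (minimum count 10, total 15), with TMM and library sizes from genes alone and Benjamini-Hochberg adjustment over all genes tested, at 0.05. The joint fits used 8 libraries. The labels do not tie the 2 libraries of a group to separate cultures; the p-values therefore cover only the spread between libraries, possibly a technical one. Within every group the libraries differed by more than sampling noise. The chi-square per degree of freedom, over genes with 20 or more reads, was 30.6 in the transient control and 1.81 to 6.75 in the other groups. The SE is the log2 difference divided by the square root of the F statistic of the test, which draws on that spread. For a large change from few reads it can be smaller than the counting error of the low group, and it understates the error there. The floor of 3 counts covers counting error only. At the depths above, 3 counts are 0.144 to 0.193 CPM in a transient, 0.179 to 0.339 in an unsorted and 0.0533 to 0.123 in a sorted library. Transcript overlap is the share of 50-base stretches found in another gene's GENCODE M21 transcripts. Promoters came from RefSeq and pairs with 200 or more identical bases were aligned with Biopython. Per-library values were given for members called in the transient set or lower in any comparison, the 6 highest with doxycycline or GFP, the 4 highest uninduced, and Pramel6 and Pramel7; genes of the companion lists were named where they passed or a sentence needed them. Of the 37 relatives, 25 were added by their reference symbol. The script was tested on simulated data. Alternatives were gene totals alone, DESeq2 size factors, DESeq2 1.42.0, other read filters, a 2-fold threshold and leaving out each library.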

Additional observations from a re-analysis of the deposited data

Results flagged for a closer look

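The response of 7 genes differed between transient and doxycycline-driven mDUX by a test of the difference itself, an interaction term in the joint fit of 8 libraries (quasi-likelihood test in edgeR, Benjamini-Hochberg adjusted). As transient minus doxycycline difference on the log2 scale, Pramef25 stood at -5.95, Pramef6 at -4.83, Pramel7 at -2.55, Pramel1 at -2.23, Pramel6 at -1.53, Pramef8 at -1.24 and Pramef12 at -0.38, where the median of all genes was 0.17. Adjusted p-values ran from 1.22e-09 for Pramef25 to 0.0452 for Pramef12. Pramef25 and Pramef6 rose in both sets, and both mDUX libraries were above both controls in each. Over the alternatives, adjusted p lost the threshold for Pramef12 in 6 cases (0.0675 to 0.153, with log2 values of -0.45 to -0.30) and for Pramel1 without the transient control library A (0.0655, at -1.56). Between the sets the read length, delivery, tag and clone also differ and cannot be told apart from the effect.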

How the results depend on the processing

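No paired analysis was possible because the columns carry no replicate number of the labels: they count libraries from 0 while titles count from 1. With doxycycline, 9 to 10 members were called, and all 9 tested members kept their direction and call, under every alternative run except the 2-fold threshold, which left 7 (without Pramef12 and Pramef17). For the sorted comparison 8 to 11 members were called, the changes being Pramef12 and members that entered or left the read filter. In the transient comparison Pramef6 and Pramef25 passed under every alternative, and the count rose from 2 to 4 with no read filter (Pramel6 and Pramef8 added). Leaving out 1 library gave 2 to 4 members called in the transient, 9 to 10 in the unsorted and 9 to 11 in the sorted comparison, 7 to 9 for GFP-negative against uninduced cells and 6 to 7 for the transient minus doxycycline difference. Signs turned for 4 members, none of them called in the fit concerned except Pramef8. With 1 library left out, the log2 difference of transient Pramef12 ran from -0.083 to 0.13 (below 0 without mDUX library B or control library B), that of transient Pramef12os from -0.45 to 0.13 (above 0 without mDUX library B or control library A), and that of Pramel3 in GFP-negative against uninduced cells from -0.42 to 0.015 (above 0 without GFP-negative library B). Pramef8 in GFP-negative against uninduced cells turned to -0.24 with gene totals alone; the cause was not tested. Shallow counts limit Pramel3, Pramel4, Pramel5 and Pramef12os, and shared sequence limits 6 members.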
